A study of Sus scrofa with 12 samples.

Results

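Chromatin accessibility was examined at 9 genes that encode the contractile regulators of fast skeletal muscle fibers. They were the fast troponins TNNT3, TNNI2 and TNNC2, the tropomyosins TPM1 and TPM2, skeletal alpha-actin ACTA1, the myosin light chains MYLPF and MYL1, and the skeletal muscle myosin light chain kinase MYLK2. All 9 were found by symbol in the RefSeq annotation of Sscrofa11.1, which lists 19550 genes that encode proteins. A peak region was assigned to a gene when its midpoint lay in the gene body or within 10 kb of it, which gave 101 of the 140081 regions of the peak table, and no region fell to more than 1 of the genes. ATAC-seq, in which a transposase cuts open chromatin and the fragments are sequenced, had been done on longissimus dorsi muscle, a predominantly fast back muscle, of 3 boars of the Duroc and 3 of the Luchuan breed at an age of 180 days. Duroc is a lean breed and Luchuan a fat Chinese breed, and nothing else distinguished the groups in the labels. Housing and feeding did not differ between the breeds, and feed was withdrawn the night before slaughter.

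Fast fibers contract when calcium binds troponin C, which releases the block that troponin I and troponin T hold on actin through tropomyosin. Myosin heads then pull on the thin filament, and the light chains stiffen and tune the myosin lever arm. In mammals most of these proteins exist as fast and slow forms from separate genes, so their open chromatin is often read beside the fiber type of a muscle. TPM1 and MYL1 are also known for alternative promoters that give different proteins from the same gene.

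The table gave 1 read count for Duroc and 1 for Luchuan at each peak. The column names give the breed alone, and each count was taken as pooled over the boars of that breed. No spread between animals could therefore be estimated, and no test between breeds was made. Regions held 20759894 Duroc and 13746020 Luchuan reads, with medians of 61 and 38. To allow for this depth, Luchuan reads were multiplied by 1.48, which brought the log2 ratio of Luchuan over Duroc reads to a median of 0 over the 68776 regions called as peaks in both breeds. Brackets after a log2 ratio hold its 95% Clopper-Pearson interval, which covers counting error only and no spread between animals. Reads that are copies of the same molecule would make it too narrow, and the sources used here do not say whether such reads were removed. In bulk muscle, fewer nuclei of a type and less open chromatin per nucleus cannot be told apart. Of the muscle markers, CKM, DES, TTN, MYOD1, MYF6, RYR1 and CACNA1S held 659 to 965 Duroc reads per kb of open region, and MB was not matched by symbol. The 5 endothelial markers held 96.9 to 309, the 4 fibroblast markers with a region 123 to 386, the 4 such adipocyte markers 175 to 647, the 5 macrophage and leukocyte markers 148 to 709, and the 3 satellite cell markers 295 to 889. FABP4 and LUM had no region. The breed ratios of these markers went both ways. Of the 7 muscle markers, CKM at -0.47, CACNA1S at -0.34 and RYR1 at -0.32 had an interval below 0, MYF6 at 0.10 and TTN at 0.03 above it, and DES and MYOD1 one that included 0. Endothelial TEK at 0.79 and KDR at 0.73 and fibroblast COL3A1 at 0.60 had intervals above 0, while the other 3 markers of either list, from -0.13 to 0.01 and from -0.10 to 0.39, had intervals that included it. Below 0 lay the intervals of PTPRC at -1.06 and CD68 at -0.10 of the 5 leukocyte markers, of CALCR at -0.57 and PAX7 at -0.21 of the 3 satellite cell markers, and of the adipocyte marker LEP at -0.93, whereas that of CIDEC at 0.13 lay above 0. The part of other cell types in the results below was not tested.

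The 9 genes carried some of the densest open chromatin of the muscle. In Duroc, reads per kb of open region ran from 825 for MYL1 to 1235 for MYLPF, against a median of 439 over the 16986 genes with a region. MYLPF, the fast regulatory light chain, ranked 1 of these genes, followed among the members by TPM2 at rank 26 with 1007, TNNT3 at rank 41 with 973 and TNNI2 at rank 50 with 968. ACTA1 ranked 54 with 961, TNNC2 84 with 934, MYLK2 89 with 933, TPM1 137 with 902 and MYL1 419. In Luchuan, without scaling, MYLPF again stood highest of the 9, with 648 reads per kb and rank 94, against a median of 289.7 over all genes. ACTA1 with 610, MYLK2 with 605, TNNC2 with 591 and TNNI2 with 585 followed within ranks 197 to 312. TPM2 held 561 reads per kb at rank 486 and TNNT3 held 523 at rank 896. TPM1 and MYL1 stood far lower in the Luchuan order, at ranks 2856 and 3382 with 426 and 408. The members therefore differed more in rank in Luchuan than in Duroc, and each rank rests on 1 count column per breed. The windows include peaks of neighbouring genes, and 11 of the 101 regions had their midpoint inside another gene.

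**Figure D1:**
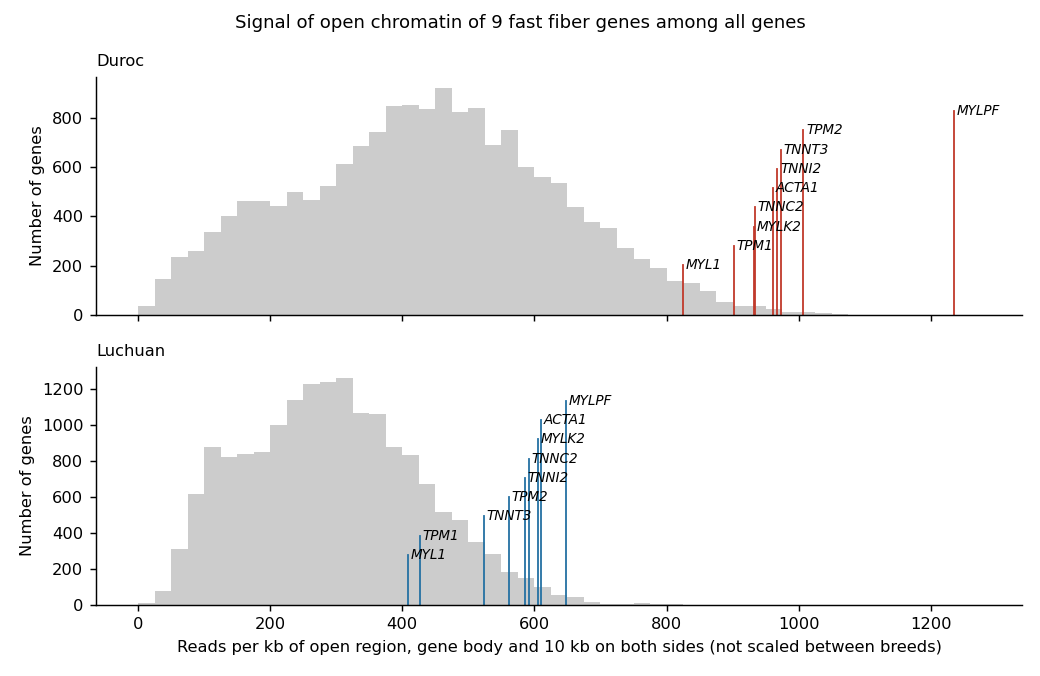
Reads per kb of open region (x axis, not scaled between breeds) in Duroc (top) and Luchuan (bottom), with the number of genes per bin as gray bars (y axis) and the 9 fast fiber genes as labelled lines whose height carries no value. In Duroc all 9 lines lie at 825 or more, and in Luchuan TPM1 at 426 and MYL1 at 408 stand apart from the other 7 at 523 or more.

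Individual regions of the genes were wide and deep. The strongest region of MYLPF held 2815 reads in Duroc and 1365 in Luchuan over 2119 bases, and 5 of the 140081 regions, itself included, had as many reads of both breeds together. That of TNNT3 had 2430 and 1306 reads over 2198 bases, and 10 regions had as many. Over the 101 regions the median was 349 Duroc and 163 Luchuan reads, and the median width was 382 bases against 251 over all regions. Of the 101, 67 were called as peaks in both breeds, 28 in Duroc only and 6 in Luchuan only, so 66.3% were common. Of all regions 49.1% were common, but of those with at least 100 reads of both breeds together 82.8% were. As 99 of the 101 had that many reads, the share of common peaks at the members was low for their depth.

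Most regions of the 9 genes had lower scaled signal in Luchuan. The log2 ratio was below 0 at 89 of the 101 regions, while 50.8% of all regions lay below 0, and the median of the 101 was -0.24 against -0.01 over all regions. Of all regions with at least 100 reads of both breeds together, 57.0% lay below 0, and their median was -0.06. At 45 of the 101 the counting interval lay wholly below 0, which is 44.6%, against 15.7% of all regions. At none of the 101 did it lie above 0, against 13.4% of all regions. Differences of 2-fold or more were few. At 7 of the 101 regions Duroc was at least 2-fold higher, which is 6.93% and close to the 5.34% of all regions (4.62% of those with at least 100 reads), and at none was Luchuan at least 2-fold higher, against 7.41%. The 7 regions all belonged to MYL1 and TPM1, and 5 of them were called as peaks in Duroc only. These 5 were 17.9% of the member regions called in Duroc only, against 14.6% of all such regions. Just past the 2-fold limit lay MYL1 regions at -1.12 and -1.01, and just short of it a TPM1 region at -0.96 and a TNNT3 region at -0.94.

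Depth and peak class moved with these counts. Among regions with at least 100 reads of both breeds together, 45 of 99 at the members and 23% of all such regions had an interval below 0. In the class of 300 to 600 reads these values were 13 of 28 and 27.9%. At 600 to 1500 reads the members were closest to all regions, with 6 of 26 and 18.3% and a members' median of -0.09, and at 1500 reads or more the values were 10 of 16 and 9.98%. The median of all regions at 1500 reads or more was 0.07, and that of the 16 member regions was -0.21. Over the 67 regions called in both breeds the median was -0.15, 22 had an interval below 0 against 16% of all common regions, and 2 were at least 2-fold higher in Duroc against 1.38%. The 28 regions called in Duroc only had a median of -0.76, and all 44532 such regions had -0.36, a class whose definition already selects for Duroc signal.

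Summed over its regions, each of the 9 genes had a log2 ratio below 0 with an interval that did not include 0. The sums ran from -0.52 for TPM1 to -0.06 for MYLK2. Of the 11724 genes with at least 1000 reads in their windows, 54.9% lay below 0, 29.8% had an interval below 0 and 21.6% had an interval above 0. These shares are not matched to the depth of the 9 genes, each of which held at least 4297 Duroc reads alone. More reads narrow the interval, so that it leaves out 0 at smaller ratios. The middle 90% of those genes lay between -0.36 and 0.28. TPM1, MYL1 and MYLPF lay below that range and the other 6 inside it.

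**Figure D2:**
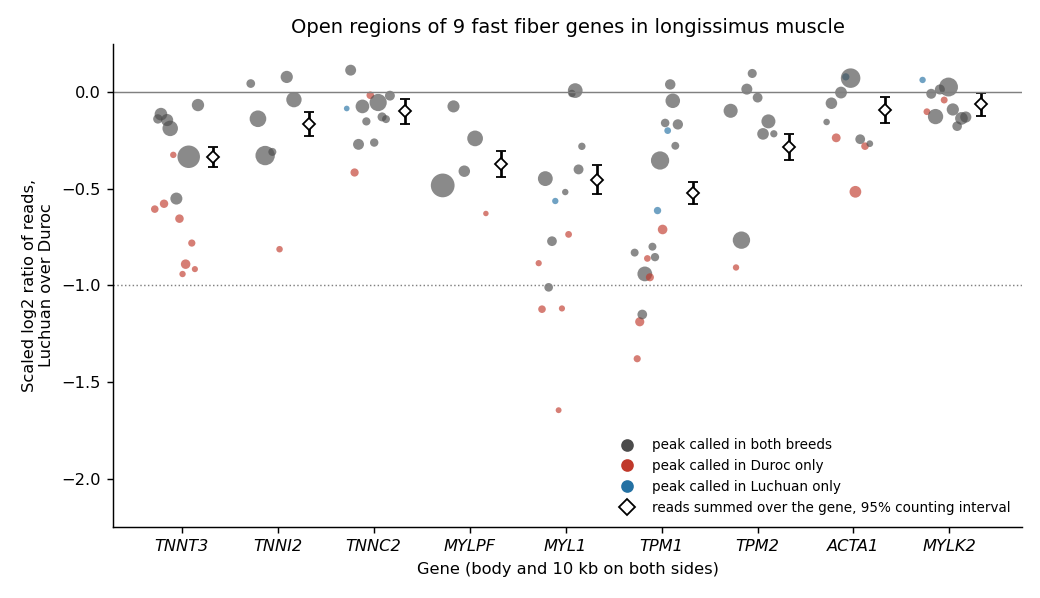
Scaled log2 ratio of Luchuan over Duroc reads (y axis) for every region of each gene (x axis), with regions ordered by position, point area by reads and colour by the breed in which the peak was called. Diamonds give the reads summed over the gene with 95% counting intervals, from -0.52 for TPM1 to -0.06 for MYLK2, and the dotted line marks a 2-fold difference, passed only by 4 regions of MYL1 and 3 of TPM1.

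The fast troponins bind each other as a complex on the thin filament, and their genes differed in ratio. TNNT3, fast troponin T, which anchors the complex to tropomyosin, lies on chromosome 2 from 1297826 to 1316865. Its 15 regions held 8032 Duroc and 4315 Luchuan reads over 8251 bases, a log2 ratio of -0.33 (-0.39 to -0.28), and 5.95% of genes were lower. All 15 regions lay below 0 and 10 had an interval below 0. The strongest region, from 1315987 to 1318184 across the end of the gene with the higher coordinate, had a log2 ratio of -0.33 (-0.43 to -0.24). At the other end, the region from 1297318 to 1297913, whose midpoint lies in LOC110259216, held 663 reads in Duroc and 415 in Luchuan and a log2 ratio of -0.11 (-0.30 to 0.06). Larger differences stood at weaker regions. From 1310246 to 1310411 there were 118 Duroc and 41 Luchuan reads, a log2 ratio of -0.94 (-1.51 to -0.44), and from 1310893 to 1311369 there were 401 and 146 reads, a log2 ratio of -0.89 (-1.18 to -0.62). Outside the gene, from 1319706 to 1319855, there were 102 and 36 reads, a log2 ratio of -0.92 (-1.53 to -0.38). All 3 were among the 8 of the 15 regions that were called as peaks in Duroc only. Over the 7 regions called in both breeds the summed ratio was -0.25.

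TNNI2, fast troponin I, which holds actin in the blocked state, lies 43.9 kb away on chromosome 2 from 1251566 to 1253883, with LSP1 between the genes. Its 7 regions held 5178 Duroc and 3131 Luchuan reads over 5351 bases, a log2 ratio of -0.16 (-0.23 to -0.10). The region from 1251073 to 1252236 across the lower end of the gene held 1221 reads in Duroc and 752 in Luchuan and a log2 ratio of -0.14 (-0.27 to -0.01). The strongest region lay outside the gene beyond its higher coordinate, from 1254615 to 1256279, with 1775 Duroc and 958 Luchuan reads and a log2 ratio of -0.33 (-0.44 to -0.21). A weaker region beside it, from 1257067 to 1257232, had 126 and 48 reads and the largest difference of the gene, -0.81 (-1.34 to -0.34). Inside LSP1, a leukocyte actin-binding protein gene, the regions of the TNNI2 window were at 0.08 (-0.11 to 0.26) and -0.04 (-0.18 to 0.10).

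TNNC2, fast troponin C, the calcium sensor, lies on chromosome 17 from 48025621 to 48026762. Its 12 regions held 4823 Duroc and 3053 Luchuan reads over 5164 bases, a log2 ratio of -0.10 (-0.16 to -0.03), so the signal in Luchuan was 93.4% of that in Duroc. The strongest region, from 48028265 to 48029438, had 1288 and 841 reads and a log2 ratio of -0.05 (-0.18 to 0.07). Inside the gene, the region from 48025726 to 48025949 had 230 and 140 reads and a log2 ratio of -0.15 (-0.47 to 0.15), and that from 48026008 to 48026190 had 175 and 117 reads and -0.02 (-0.37 to 0.33). The largest difference was -0.42 (-0.74 to -0.10) at 48022962 to 48023277, with 245 and 124 reads. Of the 12 regions, 10 had an interval that included 0. With the total reads of both breeds set equal, the interval of the summed ratio also included 0, at -0.06.

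TPM1 encodes alpha-tropomyosin, which lies along the actin filament, and it had the lowest ratio of the 9 genes. It lies on chromosome 1 from 108986981 to 109016090. Its 18 regions held 7751 Duroc and 3662 Luchuan reads over 8594 bases, a log2 ratio of -0.52 (-0.58 to -0.46), so Luchuan signal was 69.7% of Duroc signal (67.0% to 72.5%), and 1.71% of genes were lower. The difference was unequal along the gene. The region nearest to the lower end lay 1.035 kb outside it, from 108985644 to 108985946, with 191 reads in Duroc and 49 in Luchuan. Its ratio of -1.38 (-1.89 to -0.94) was the largest difference of the gene. This region and that from 108989092 to 108989515 were called as peaks in Duroc only. Next came 108989092 to 108989515, with 379 and 112 reads and -1.19 (-1.51 to -0.89), and 108989556 to 108990070, with 438 and 133 reads and -1.15 (-1.45 to -0.88). Together with the region from 108990329 to 108991498, which had 1129 and 398 reads and -0.94 (-1.11 to -0.78), these 4 neighbouring regions had scaled Luchuan signals of 38.4% to 52.1% of those in Duroc. Across the middle of the gene, regions lay between -0.96 and -0.61. The strongest region, from 109009828 to 109011181, had 1573 and 834 reads and a ratio of -0.35 (-0.48 to -0.23). Near the other end the breeds were close. From 109013699 to 109014100 there were 405 Duroc and 282 Luchuan reads, 0.04 (-0.19 to 0.26), and across the end itself, from 109015653 to 109016495, there were 889 and 584 reads, -0.04 (-0.20 to 0.11).

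On the lower-coordinate side of the midpoint of TPM1, 7 regions summed to 2778 Duroc and 925 Luchuan reads, a ratio of -1.02 (-1.13 to -0.92). On the other side, 11 regions summed to 4973 and 2737 reads, a ratio of -0.30 (-0.37 to -0.23). The difference between the sides was -0.72 (-0.85 to -0.60), a value in which a constant factor between the breeds cancels, and it was -0.74 (-0.87 to -0.61) with a line on mean signal set to 0. The split at the midpoint was chosen after the ratios had been seen. Most TPM1 regions called in Duroc only, a class that selects for Duroc signal, lay on the lower-coordinate side.

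TPM2 encodes beta-tropomyosin, the partner of the alpha form in fast and slow fibers, and lies on chromosome 1 from 236402249 to 236410390. Its 9 regions held 5161 Duroc and 2876 Luchuan reads over 5124 bases, a log2 ratio of -0.28 (-0.35 to -0.22). A single strong region carried most of this. From 236401421 to 236403059, across the lower end of the gene, there were 1547 Duroc and 616 Luchuan reads, a log2 ratio of -0.77 (-0.90 to -0.63). The 5 regions inside the gene lay between -0.22 and 0.10, and with the gene body alone which leaves out that region because its midpoint lies just below the gene, the summed ratio was -0.09 (-0.18 to 0.00). The largest difference, -0.91 (-1.47 to -0.41), was at a weak region inside CA9 from 236400056 to 236400209 with 118 and 42 reads. The other region inside CA9, a carbonic anhydrase gene, had 838 and 531 reads and -0.10 (-0.26 to 0.06).

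ACTA1 encodes the actin that makes up the thin filament of adult skeletal muscle, and lies on chromosome 14 from 60412651 to 60415687. Its 10 regions held 4536 Duroc and 2881 Luchuan reads over 4721 bases, a log2 ratio of -0.09 (-0.16 to -0.03). The strongest region, from 60412494 to 60413799 across the lower end of the gene, held 1619 reads in Duroc and 1154 in Luchuan and a ratio of 0.07 (-0.04 to 0.18). At the opposite end of the gene body, the region from 60414941 to 60415550 had 617 and 292 reads and -0.52 (-0.72 to -0.31), the only one of the 10 with an interval that did not include 0. Just outside that end, the region from 60415787 to 60416129 had 371 and 212 reads and -0.24 (-0.50 to 0.00). Over the 6 regions called in both breeds the summed ratio was -0.01 (-0.09 to 0.07), and with the total reads set equal it was -0.06 (-0.13 to 0.01), and in the gene body alone it was -0.07 (-0.16 to 0.03), so whether the interval of this gene left out 0 changed with the peaks, the scaling and the window.

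MYLPF encodes the fast regulatory light chain, which is the substrate of MYLK2, and lies on chromosome 3 from 17938129 to 17941071. Its 5 regions held 5144 Duroc and 2698 Luchuan reads over 4164 bases, a log2 ratio of -0.37 (-0.44 to -0.30), and 4.73% of genes were lower. The strongest region spans the lower end of the gene from 17936439 to 17938557, has its midpoint in SEPT1 and had a ratio of -0.48 (-0.58 to -0.39) with the reads given above. At the opposite end, from 17940931 to 17941386, there were 592 Duroc and 381 Luchuan reads and a ratio of -0.07 (-0.26 to 0.11). Beyond it, the regions from 17942738 to 17943234, with 571 and 291 reads, and from 17943791 to 17944726, with 1110 and 637 reads, had ratios of -0.41 (-0.62 to -0.20) and -0.24 (-0.38 to -0.10). The remaining region, inside TBC1D10B from 17949408 to 17949563, had 56 and 24 reads and the numerically largest difference, -0.63 (-1.42 to 0.05).

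MYL1 encodes the fast essential light chain, and lies on chromosome 15 from 113038083 to 113051315. Its 14 regions held 4297 Duroc and 2127 Luchuan reads over 5209 bases, a log2 ratio of -0.45 (-0.53 to -0.38), and 2.55% of genes were lower. Of the 14 regions, 11 had an interval below 0 and 4 were at least 2-fold higher in Duroc. A cluster of 6 regions lay outside the lower end, the nearest 0.425 kb and the farthest 4.002 kb from it. Its strongest region, from 113035138 to 113036152, held 1029 reads in Duroc and 511 in Luchuan and a ratio of -0.45 (-0.60 to -0.29). On both sides of it the differences were larger. From 113034630 to 113034913, called as a peak in Duroc only, there were 224 and 69 reads and -1.12 (-1.55 to -0.74). From 113036355 to 113036725 there were 317 and 106 reads and -1.01 (-1.35 to -0.70). Nearest to the gene, from 113037509 to 113037658, there were 108 and 49 reads and -0.56 (-1.10 to -0.08), although this region was called as a peak in Luchuan only. Inside the gene, the region from 113042536 to 113042686 held 96 reads in Duroc and 20 in Luchuan, and its ratio of -1.65 (-2.48 to -0.996) was the largest difference among all 101 regions. Beside it, from 113042812 to 113043014, there were 108 and 33 reads and -1.12 (-1.76 to -0.57). Both of these regions inside the gene were called as peaks in Duroc only. The region from 113050877 to 113051852 across the upper end showed no such difference, with 904 Duroc and 616 Luchuan reads and 0.01 (-0.14 to 0.16).

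For MYL1, 8 regions on the lower-coordinate side of the gene's midpoint had a summed ratio of -0.72 (-0.83 to -0.61) and the 6 on the other side had -0.18 (-0.28 to -0.07). These sides differed by -0.54 (-0.69 to -0.39), the second largest such contrast after TPM1. Most MYL1 regions called in Duroc only also lay on the lower-coordinate side. MYL1 and TPM1 were also the genes in which single regions spread most, with ranges of 1.65 and 1.42 on the log2 scale, against 0.24 for MYLK2 and 0.53 for TNNC2. A range tends to grow with the number of regions, 14 and 18 against 11 and 12, and with low counts. The lowest ratio of MYL1 rests on 96 and 20 reads.

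**Figure D3:**
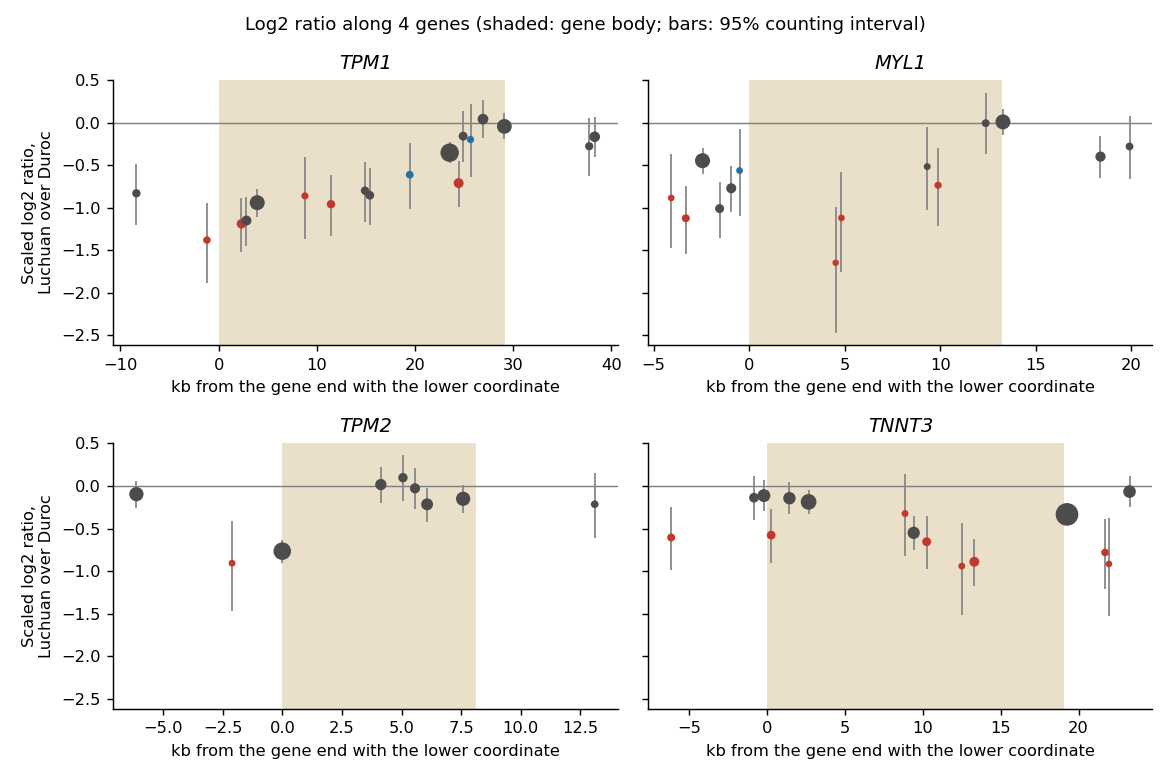
Scaled log2 ratio of Luchuan over Duroc (y axis) of each region against its midpoint in kb from the gene end with the lower coordinate (x axis) for TPM1, MYL1, TPM2 and TNNT3, with the gene body shaded, 95% counting intervals as bars, point area by reads, and gray, red and blue points for peaks called in both breeds, Duroc only and Luchuan only. In TPM1 the ratio goes from -1.38 outside the lower end to -0.04 across the upper end, and in TPM2 the region across the lower end, at -0.77, stands apart from the 5 regions in the gene.

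MYLK2 encodes the kinase that phosphorylates the regulatory light chain, and lies on chromosome 17 from 35499828 to 35513096. Its 11 regions held 5762 Duroc and 3738 Luchuan reads over 6179 bases, a log2 ratio of -0.06 (-0.12 to -0.003), the closest of the 9 genes to 0. None of its regions had an interval that left out 0. The strongest, inside the gene from 35501989 to 35503482, had 1534 and 1059 reads and a ratio of 0.03 (-0.09 to 0.14), and that across the lower end, from 35499646 to 35500034, had 373 and 255 reads and 0.01 (-0.22 to 0.25). The largest difference, -0.18 (-0.43 to 0.07), lay outside the gene from 35514546 to 35514894, with 349 and 209 reads. With the total reads set equal the summed ratio was -0.03 (-0.09 to 0.03), and with the gene body alone its sign turned, to 0.02 (-0.08 to 0.12).

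The ends of the genes were compared as pairs, because the annotation used here gives no strand and the start of transcription could not be told from its end. For each gene the region across or nearest to the lower end was set against that at the higher end, and a constant factor between the breeds cancels in the difference of their ratios. The lower end had the lower ratio in TPM1, by -1.36 (-1.86 to -0.87), in TPM2, by -0.62 (-0.83 to -0.40), in MYL1, by -0.59 (-1.13 to -0.06), and in MYLPF, by -0.41 (-0.62 to -0.20). It had the higher ratio in ACTA1, by 0.32 (0.05 to 0.59), in TNNT3, by 0.22 (0.01 to 0.42), and in TNNI2, by 0.19 (0.01 to 0.37). In TNNC2, at -0.14 (-0.61 to 0.34), and MYLK2, at 0.10 (-0.20 to 0.40), the interval included 0. The interval thus left out 0 at 7 of the 9 genes, against 21.3% of the 10523 genes with at least 1000 reads and a region of its own at each end, and 25.5% of those with at least 100 reads in both end regions. The end regions of the 9 genes held 108 to 2815 Duroc reads, and neither share is matched to that depth. More reads narrow the interval. For TNNT3, TNNI2 and ACTA1 the lower bound of the interval was close to 0. For MYL1 the upper bound was too, at -0.06, and its lower-end region held 108 Duroc and 49 Luchuan reads. With a line on mean signal set to 0, which does not cancel, the interval of TNNT3 included 0, at 0.19 (-0.02 to 0.39), and those of the other 6 did not. The lower-end region of TPM1 was called as a peak in Duroc only, and that of MYL1 in Luchuan only. The spread of these contrasts between boars is not known.

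**Figure D4:**
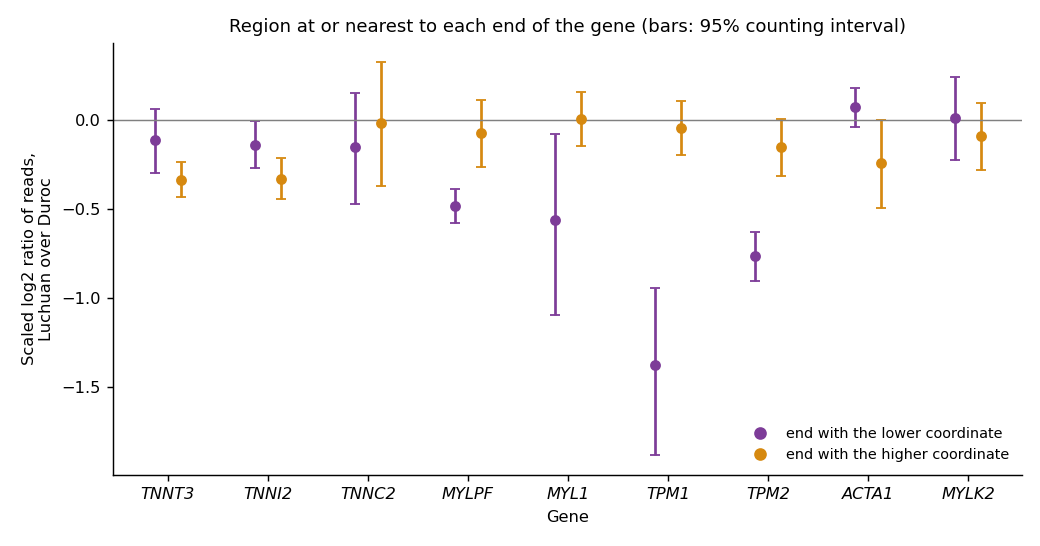
Scaled log2 ratio of Luchuan over Duroc (y axis) for the region across or nearest to the lower-coordinate end (purple) and the higher-coordinate end (orange) of each gene (x axis), with 95% counting intervals as bars. Purple lies below orange in TPM1, TPM2, MYL1 and MYLPF, from -1.38 to -0.48 against -0.15 to 0.01, and above it in ACTA1, TNNT3 and TNNI2.

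The surroundings of the genes were less shifted than the genes with the lowest ratios. From 10 kb to 200 kb outside the 9 genes lay 346 other regions, with a median of -0.13 and 70.5% of them below 0. Of these, 25.4% had an interval below 0 and 3.18% above it. The shares were 44.6% and none at the members, and 15.7% and 13.4% over all regions. Flanking regions were weaker, with a median of 123.5 Duroc reads against 349 at the members, and weaker regions have wider intervals. For TNNT3 the median of its own regions was -0.55 and that of 48 flanking regions was -0.07. For TPM1 these were -0.76 and -0.32, for MYL1 -0.65 and -0.21, and for MYLPF -0.41 and -0.11. The flanks of TPM1 were themselves the lowest of the 9, with 6 of 50 regions at least 2-fold higher in Duroc. TNNC2, with -0.11 against -0.14 in its flanks, and ACTA1, with -0.19 against -0.15, lay close to their surroundings. The medians were -0.14 and -0.05 for TNNI2, -0.15 and -0.09 for TPM2, and -0.09 and -0.04 for MYLK2. Ratios of summed reads gave another order. Gene and flanks stood at -0.52 and -0.24 for TPM1, -0.45 and -0.07 for MYL1, and -0.37 and -0.14 for MYLPF. They stood at -0.33 and -0.10 for TNNT3, -0.28 and -0.09 for TPM2, and -0.16 and -0.10 for TNNI2. For TNNC2 they were -0.10 and -0.09. ACTA1, at -0.09 against -0.12, and MYLK2, at -0.06 against -0.09, lay above their flanks, with intervals that overlapped.

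Genes of the slow fiber program were set beside the fast ones. In Duroc the 8 slow genes TNNT1, TNNI1, TNNC1, MYL2, MYL3, MYL6B, TPM3 and MYH7 had fewer reads per kb of open region, 447 to 781, than each of the 9 fast genes. Lower values were not particular to slow genes. In Duroc the fast heavy chain genes MYH4, MYH1 and MYH2 held 814, 592 and 440, also below each of the 9. The fast actinin gene ACTN3 held 1027. In Luchuan, without scaling, the slow genes held 152 to 523, and MYL6B, the highest, stood above MYL1 at 408 and TPM1 at 426. The summed log2 ratios of the slow genes ran from -1.08 (-1.25 to -0.92) for MYL2, the slow regulatory light chain, to -0.02 (-0.14 to 0.10) for MYL6B. Their median was -0.31, against -0.28 for the 9 genes of the fast list. That -0.28 is the value of TPM2, which, like ACTA1, is not limited to fast fibers. For 6 of the 8 the interval lay below 0 and for none above it. Of their 60 regions, 33 had an interval below 0 and 1 above it, against 15.7% and 13.4% of all regions. At least 2-fold higher in Duroc were 5 of the 60, which is 8.33% against 5.34% of all regions, and 1 was at least 2-fold higher in Luchuan. Ratios below 0 were thus counted at both slow and fast genes, and the difference between the lists was not tested. Fast and slow counterparts differed in both directions. The slow MYL2 at -1.08 lay below the fast MYLPF at -0.37, and the slow TNNI1 at -0.55 (-0.65 to -0.44) below the fast TNNI2 at -0.16. The slow essential light chains MYL3 at -0.03 (-0.17 to 0.11) and MYL6B at -0.02 lay above the fast MYL1 at -0.45, and the slow tropomyosin TPM3 at -0.28 (-0.39 to -0.17) above TPM1 at -0.52. TNNT1 at -0.34 (-0.44 to -0.24) and TNNT3 at -0.33 had intervals that overlapped, as did TNNC1 at -0.25 (-0.37 to -0.14) and TNNC2 at -0.10.

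Of 6 skeletal myosin heavy chain genes, MYH1, MYH2 and MYH4 were matched by symbol and MYH3, MYH8 and MYH13 were not analysed here. The 3 lie side by side on chromosome 12 and their windows share regions. MYH4, the fastest adult heavy chain, had a ratio of -0.62 (-0.67 to -0.57), MYH1 -0.41 (-0.48 to -0.35) and MYH2 -0.27 (-0.37 to -0.18). Of their 57 regions, 35 had an interval below 0 and 1 above it, which is 61.4% and 1.75% against 15.7% and 13.4% of all regions. At least 2-fold higher in Duroc were 11 of the 57, which is 19.3% against 5.34%.

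The summed ratios of the 18 partners of the thin filament and the light chain pathway lay on both sides of 0, with a median of -0.06. In 7 of them the interval lay below 0, in 3 above it, and in 8 it included 0. Of the genes with at least 1000 reads, 29.8% had an interval below 0 and 21.6% above it. The median of the partners' 443 regions was -0.17. Of these, 113 had an interval below 0 and 17 above it, which is 25.5% and 3.84% against 15.7% and 13.4% of all regions. The lowest was NEB, the ruler of the thin filament, at -0.35 (-0.38 to -0.33). LMOD3, a nucleator of thin filaments, stood at -0.31 (-0.39 to -0.24), and ACTN3, the fast Z-disc actinin, at -0.29 (-0.34 to -0.24). The highest was MYLK3, the cardiac light chain kinase, at 0.54 (0.25 to 0.83) on 207 Duroc and 204 Luchuan reads. ACTN2, the actinin of all striated fibers, stood at 0.09 (0.04 to 0.15).

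**Figure D5:**
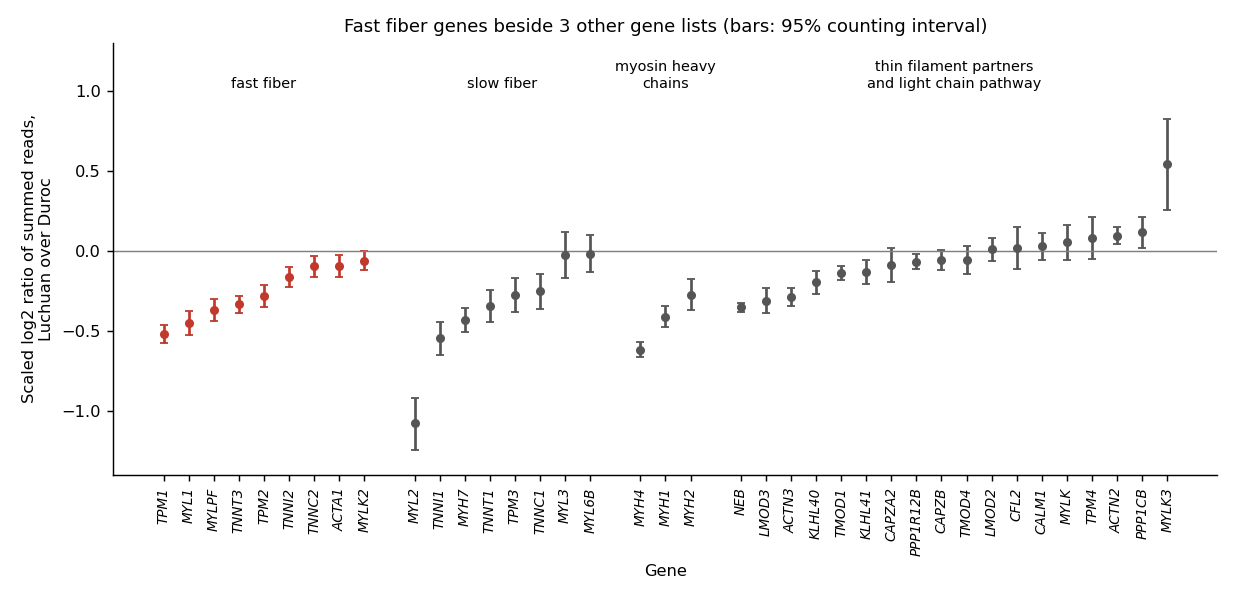
Scaled log2 ratio of Luchuan over Duroc (y axis) of the reads summed over each gene (x axis), ordered within 4 lists, with 95% counting intervals as bars. The 9 fast fiber genes (red) lie between -0.52 and -0.06, the 8 slow genes between -1.08 and -0.02, the 3 myosin heavy chains between -0.62 and -0.27, and the 18 partners between -0.35 and 0.54.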

How the data were processed

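For ATAC-seq, the authors used Trimmomatic 0.36 to filter reads, Bowtie2 for alignment to the Duroc assembly Sscrofa11.1 and MACS2 to call peaks. They deposited whole-number read counts per peak, 1 column per breed, for 217213 peaks. The tool that counted reads is not given in the sources used here. Deposited log2 ratios, mean log2 signals and p-values of the authors' comparison of the breeds were not used. The mRNA samples were not analysed here.

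Overlapping or adjoining common peaks were merged and the longest peak stood for the region. Log2 ratios have 1 added to each count. Starts were read as counted from 0, since the shortest peak is then 150 bases, and are printed counted from 1. Reads of a gene were summed over its regions. The scripts were tested on simulated data.

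Named regions of a gene are the one with the most reads, those nearest to its ends, those with 2-fold differences and the one with the largest difference at 50 reads or more. Other regions named were chosen after their values were seen. The genes and lists were chosen with earlier results of these data known. The gene positions come from RefSeq, without strand, exons or sequences, so no sequence is printed. Scripts ran under Python 3.11.15 with SciPy 1.17.1, statsmodels 0.14.6, pandas 2.3.3, NumPy 2.4.6 and Matplotlib 3.10.9.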

Additional observations from a re-analysis of the deposited data

How the results depend on the processing

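No test between boars was possible, since each breed has 1 count per peak, and no boar could be left out. No paired analysis was possible because the count columns carry no replicate number. The 9 summed log2 ratios were recomputed under 10 alternatives, of which the restriction to regions called in both breeds was added after seeing the data. They gave 89 values, because MYLPF has no region with its midpoint in the gene body, and 88 of them were below 0. The exception was MYLK2 in the gene body alone, at 0.020. The interval included 0 in 14 of the 89, all of them values of TNNC2, ACTA1, MYLK2 or, in the gene body alone, TPM2.

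In the gene body alone the ratios of TNNT3, MYL1 and TPM2 moved to -0.40, -0.62 and -0.087, the median of the regions to -0.34, the regions at least 2-fold higher in Duroc to 4 of 40 and those with an interval below 0 to 23 of 40. Over regions called in both breeds, TNNT3, MYL1, TPM1 and ACTA1 moved to -0.25, -0.35, -0.44 and -0.013, the median to -0.15, and the counts to 2 and 22 of 67. Counting every peak as listed moved TPM1 to -0.45, TPM2 to -0.21 and the regions with an interval below 0 to 72 of 181. With 2 kb on both sides TNNI2 moved to -0.25. With a line on mean signal set to 0, 1 region had an interval above 0. The cause of these moves was not tested beyond the peaks each setting keeps. The differences between gene ends and sides, recomputed with that line after seeing the data, kept their signs, and only that between the ends of TNNT3 no longer left out 0. The other 138 of 157 values stayed within their intervals or within 1.5 times the count.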
